A study of Mus musculus with 8 samples.

Results

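The EGFR family genes examined here were 10 of the 54532 genes listed in the deposited counts of 4T1 cells. They were chosen by name as members of the family, with earlier results of these data known. They are the ligands Areg, Hbegf, Tgfa, Btc, Epgn and Ereg, the receptors Egfr, Erbb2 and Erbb3, and Errfi1, which encodes an inhibitor of the receptors. All 10 symbols were found. 4T1 is a mouse mammary carcinoma line used as a model of triple-negative breast cancer (TNBC). The cells had been stably transfected with a single shRNA against MCT-1 (shMCT-1), the product of the gene Mcts1, or with a scramble shRNA, and all of them were grown in RPMI-1640 with 10% FBS and 6 µg/ml puromycin. Each background was given either an antibody that blocks the mouse IL-6 receptor (anti-IL-6R, 100 ng/ml) or IgG for 48 h, which made 4 groups of 2 libraries, named by background and treatment (for example, scramble + IgG). The submitters call the 2 libraries of a group independent biological replicates. The number of transfected lines per shRNA was not given in the sources used here, so that silencing of MCT-1 and other differences between the lines cannot be told apart.

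The ligands of this family are made as membrane-bound precursors and are released by metalloproteases such as ADAM17. A released ligand joins receptors into pairs and switches on their kinases, and the signal passes through RAS, RAF, MEK and ERK to early response genes. Amphiregulin (Areg), TGF-alpha (Tgfa), epigen (Epgn) and EGF bind EGFR, whereas HB-EGF (Hbegf), betacellulin (Btc) and epiregulin (Ereg) bind EGFR and ERBB4. ERBB2 has no known ligand of its own and serves as a partner, ERBB3 binds neuregulins and has little kinase activity, and ERRFI1 (also called MIG6) binds active EGFR and blocks its kinase. In mammary gland, amphiregulin is the ligand through which estrogen drives growth of the ducts. The study concerns MCT-1, IL-6 receptor signaling and EGFR, and the questions put to these genes were whether their expression differed between shMCT-1 and scramble cells and whether it changed upon anti-IL-6R.

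The promoters of Areg and Btc are shown because these genes were lower in shMCT-1 cells in both treatments, and that of Errfi1 because it shares a motif with Areg. RefSeq (GRCm38.p6) gave a window of 300 bases, 250 before and 50 after the start of transcription, for 7 of the 10 genes, with 8 windows in all since Errfi1 has 2. Ereg and Erbb3 had no entry. Hbegf has no window here because the chromosome that carries it was left out of the search. The windows are written 5′ to 3′ on the strand of the gene, and capitals mark the cAMP response element (CRE) TGACGTCA. The Areg window is chr5:91139349-91139648 on the plus strand, the Btc window chr5:91402945-91403244 on the minus strand and the Errfi1 window shown, the second of the 2, chr4:150854820-150855119 on the plus strand.
Areg: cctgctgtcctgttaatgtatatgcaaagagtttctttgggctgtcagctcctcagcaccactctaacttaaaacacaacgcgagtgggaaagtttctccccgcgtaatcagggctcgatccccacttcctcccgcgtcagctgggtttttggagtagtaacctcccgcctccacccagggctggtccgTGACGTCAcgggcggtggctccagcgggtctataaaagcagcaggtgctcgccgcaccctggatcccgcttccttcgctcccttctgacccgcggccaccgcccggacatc
Btc: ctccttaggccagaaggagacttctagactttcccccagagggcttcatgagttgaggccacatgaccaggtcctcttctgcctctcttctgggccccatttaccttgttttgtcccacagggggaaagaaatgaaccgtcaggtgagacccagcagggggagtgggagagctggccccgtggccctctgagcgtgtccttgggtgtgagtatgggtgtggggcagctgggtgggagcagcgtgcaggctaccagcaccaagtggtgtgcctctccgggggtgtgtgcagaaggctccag
Errfi1: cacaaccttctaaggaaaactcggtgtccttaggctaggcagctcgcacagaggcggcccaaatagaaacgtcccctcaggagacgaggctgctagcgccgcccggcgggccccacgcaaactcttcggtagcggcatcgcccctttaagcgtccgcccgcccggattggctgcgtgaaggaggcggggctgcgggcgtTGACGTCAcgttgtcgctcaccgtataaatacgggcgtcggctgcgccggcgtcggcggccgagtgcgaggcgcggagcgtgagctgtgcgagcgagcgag
The CRE lay at 91139538-91139545 in the Areg window, its first base 61 bases before the start, and at 150855019-150855026 in the Errfi1 window, 51 bases before the start. Of 32851 windows of the same length on the chromosomes searched, 1.79% hold this word, read on both strands, and 2 of the 8 windows examined here did. The STAT motif TTCNNNGAA was in 8.3% of all windows and the AP-1 motif TGANTCA in 7.81%, and 0 of the 8 windows held either of them. A CRE holds no AP-1 match, which is 1 base shorter, and a match describes the letters in these windows only.

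Library totals ran from 19839299 to 33063570 counts, and every shMCT-1 library (19839299 to 23448587) was smaller than every scramble library (24100084 to 33063570). Levels are given in CPM, counts per 1000000 counts of the library, and 1 CPM stood for 19.8 to 33.1 counts. The 12704 genes above 1 CPM in 2 or more libraries were scaled by TMM and tested with edgeR's quasi-likelihood test, and those with an adjusted p under 0.05 (Benjamini-Hochberg) are called differentially expressed genes (DEGs). Mcts1, the silenced gene, was at 4.92 to 6.70 CPM in shMCT-1 and at 11.8 to 15.4 CPM in scramble libraries, with log2 fold changes of -1.08 within IgG and -1.13 within anti-IL-6R. All 6 epithelial markers examined were tested, and their summed level was 2344 to 2497 CPM in scramble and 3074 to 3332 CPM in shMCT-1 libraries. Among them Epcam was at 3.75 to 4.93 CPM in scramble and 49.4 to 54.5 CPM in shMCT-1, and Krt19 at 16.5 to 19.5 CPM and 0.384 to 0.774 CPM. All 5 leukocyte markers, the defining Ptprc among them, stayed below 1 CPM in every library, and of the fibroblast markers Dcn and Lum were at or near 0 while Pdgfra was at 10.9 to 16.7 CPM. The summed level of the endothelial markers Pecam1 and Cdh5 was 0.0960 to 0.290 CPM in scramble and 0.504 to 1.78 CPM in shMCT-1. The part of these marker differences in the results below was not tested.

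Areg was the most abundant of the 10 genes per length, and Egfr, the receptor it binds, was among the least. Measured as CPM per kb of exon and averaged over the 8 libraries, Areg stood at 96.1 and Errfi1 at 65.97. Hbegf followed at 16.3, Erbb2 at 11.8 and Tgfa at 11.1. Erbb2 was above Tgfa in 7 of the 8 libraries, so that this order held in most but not in all of them. Erbb3 (1.73 CPM per kb) and Btc (1.27 CPM per kb) changed places between the backgrounds, with Erbb3 the higher in 4 of 8 libraries. Epgn (0.0744 CPM per kb) was above Egfr (0.0478 CPM per kb) in 6 of 8 libraries, and Ereg was last at 0.00395 CPM per kb. All other neighbours in this order kept it in each of the 8 libraries.

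**Figure D1:**
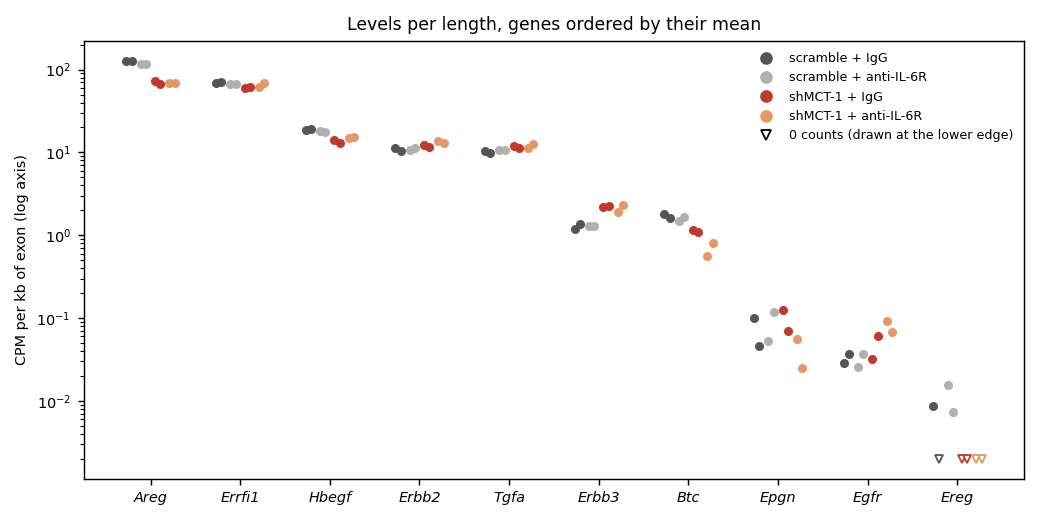
Level of each of the 10 genes in each library, in CPM per kb of exon on a log axis, with the genes ordered by their mean and each point 1 library of the group its color gives; open triangles mark libraries with 0 counts. Areg and Errfi1 sit between 60.3 and 128.2 in every library, and Epgn, Egfr and Ereg at 0.127 or less.

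Ereg and Epgn were below 1 CPM in all 8 libraries, and Egfr was below 1 CPM in 7 of 8. These 3 genes were not tested. The other 7 genes were above 1 CPM in each library, so that none of them passed the filter through one background alone. In shMCT-1 + IgG vs. scramble + IgG, 5 of the 7 were DEGs, 2 of them higher and 3 lower in shMCT-1, where 54.4% of all genes tested were DEGs, 28.3% higher and 26.2% lower. Within anti-IL-6R, 5 of the 7 were again DEGs, 3 higher and 2 lower, against 54.3% of all genes, 26.9% higher and 27.3% lower. The median log2 fold change of the 7 genes was -0.16 within IgG and 0.01 within anti-IL-6R, and that of all genes tested was 0.01 in both. In both treatments alike, Areg and Btc were lower and Tgfa and Erbb3 higher, 4 of the 7 genes, as were 46.3% of all genes tested (22.7% lower, 23.6% higher). For 6 of the 7 genes, all but Errfi1, the 4 shMCT-1 libraries did not overlap with the 4 scramble libraries, as for 64.1% of all genes tested. In 3 of these 6 the shMCT-1 libraries were lower (34.2% of all genes tested) and in 3 higher (29.9%). So large a share of the transcriptome was called that these counts are no result about the family as such, and the values of the single genes follow.

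**Figure D2:**
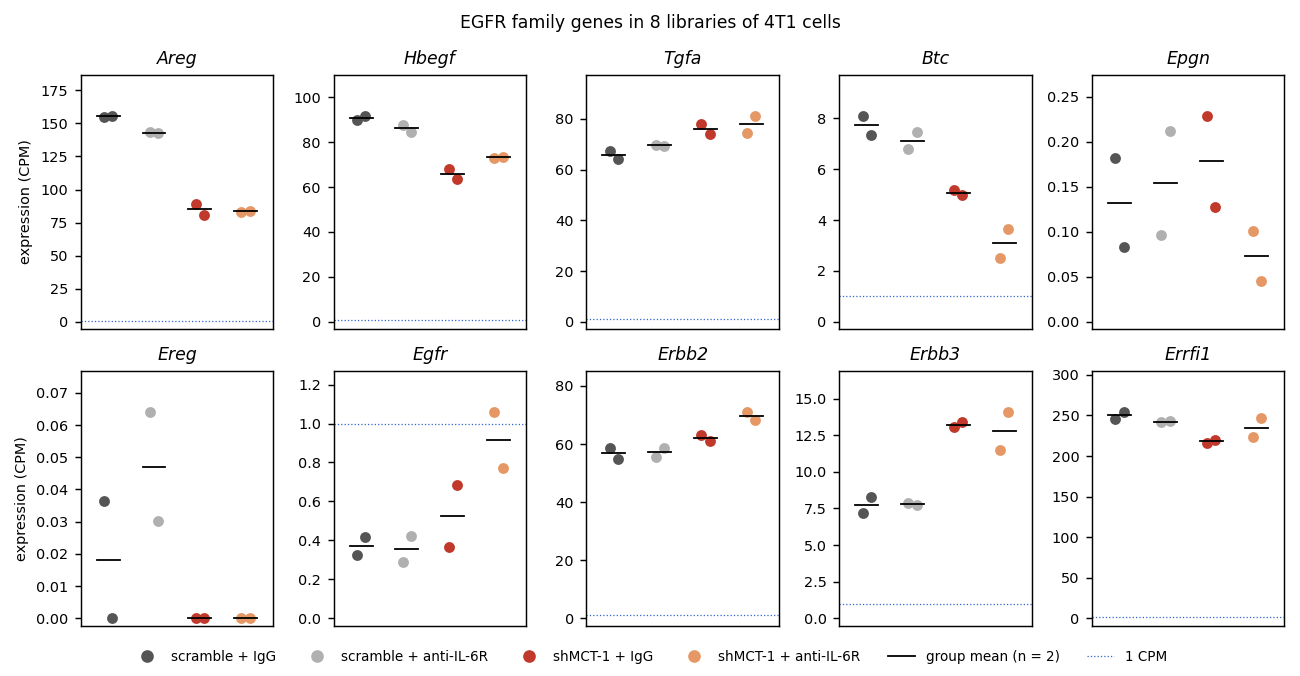
Level of each gene in CPM (vertical axis from 0, with its own range per gene) in the 8 libraries, with points for libraries colored by group, a bar for the mean of the 2 libraries and a dotted line at 1 CPM where it falls in the range. Areg, Hbegf and Btc are lower and Tgfa, Erbb2 and Erbb3 higher in each shMCT-1 library than in each scramble library, whereas Errfi1 overlaps.

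Areg (ENSMUSG00000029378), at 91139599-91148432 on the plus strand of chromosome 5 (GRCm38), encodes amphiregulin. It was at 154.9 and 155.8 CPM in scramble + IgG, at 143.6 and 142.5 CPM in scramble + anti-IL-6R, at 89.3 and 80.9 CPM in shMCT-1 + IgG and at 83.0 and 83.8 CPM in shMCT-1 + anti-IL-6R. The highest shMCT-1 library thus lay far below the lowest scramble library, and libraries of 1 group differed little. The log2 fold change, here and below that of shMCT-1 over scramble, was -0.83 within IgG (SE 0.08, adjusted p = 5.03e-05) and -0.72 within anti-IL-6R (SE 0.08, adjusted p = 0.000101), both from edgeR's quasi-likelihood test. This is a level 1.77-fold lower within IgG and 1.65-fold lower within anti-IL-6R. In bulk libraries such as these, fewer cells that express a gene and less RNA per cell cannot be told apart. An exact permutation test of the 4 shMCT-1 against the 4 scramble libraries gave p = 0.0286, two-sided, the smallest it can give. Hbegf, Tgfa, Btc, Erbb2 and Erbb3 gave the same value in this test, and the backgrounds did not overlap for 64.1% of all genes tested. The permutation test thus does not set Areg apart. Areg remained a DEG in both treatments in all 10 alternative settings and with each of the 8 libraries left out, with log2 fold changes of -0.90 to -0.70.

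Btc (ENSMUSG00000082361), at 91357261-91402994 on the minus strand of chromosome 5, encodes betacellulin. It was at 8.10 and 7.34 CPM in scramble + IgG, at 6.78 and 7.47 CPM in scramble + anti-IL-6R, at 5.17 and 4.99 CPM in shMCT-1 + IgG and at 2.52 and 3.64 CPM in shMCT-1 + anti-IL-6R. The 2 shMCT-1 + anti-IL-6R libraries were the lowest of all, and the smaller of them rested on 50 counts. Betacellulin transcripts fell by 0.56 on the log2 scale within IgG (SE 0.18, adjusted p = 0.0252 in edgeR) and by 1.15 within anti-IL-6R (SE 0.19, adjusted p = 0.000887 in edgeR). The difference between these values, the interaction, was -0.59 (SE 0.27, unadjusted p = 0.0529, adjusted p = 1.00 in edgeR), so that the 2 values were not shown to differ. Within IgG the call was lost without scramble + IgG replicate 1, without shMCT-1 + IgG replicate 1 and without shMCT-1 + IgG replicate 2 (adjusted p = 0.0844, 0.0847 and 0.107 in edgeR), at log2 fold changes of -0.51 to -0.59. Within anti-IL-6R it held in all 8 such fits, at -1.42 to -0.90.

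Hbegf (ENSMUSG00000024486), at 36504927-36515805 on the minus strand of chromosome 18, encodes heparin-binding EGF-like growth factor. It was at 90.0 and 91.7 CPM in scramble + IgG, at 87.5 and 84.6 CPM in scramble + anti-IL-6R, at 67.9 and 63.5 CPM in shMCT-1 + IgG and at 72.8 and 73.6 CPM in shMCT-1 + anti-IL-6R. The backgrounds did not overlap, but the gap was narrower upon anti-IL-6R. Within IgG the log2 fold change was -0.43 (SE 0.08, adjusted p = 0.00188 in edgeR), and the value within anti-IL-6R did not pass the threshold (-0.18, SE 0.08, adjusted p = 0.0902 in edgeR). A difference between the 2 treatments was not called either (interaction 0.25, SE 0.12, unadjusted p = 0.0579, adjusted p = 1.00 in edgeR). With library totals in place of TMM the value within anti-IL-6R was -0.23 and passed (adjusted p = 0.0334 in edgeR).

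Tgfa (ENSMUSG00000029999), at 86195223-86275719 on the plus strand of chromosome 6, encodes TGF-alpha. It was at 67.5 and 64.2 CPM in scramble + IgG, at 69.9 and 69.4 CPM in scramble + anti-IL-6R, at 78.1 and 73.9 CPM in shMCT-1 + IgG and at 74.4 and 81.3 CPM in shMCT-1 + anti-IL-6R. Among the 4 ligands tested it was the one that was higher, with each shMCT-1 library above each scramble library by a small margin. Its log2 fold change was 0.25 within IgG (SE 0.08, adjusted p = 0.0281 in edgeR) and 0.22 within anti-IL-6R (SE 0.08, adjusted p = 0.0497 in edgeR). Both calls stood close to the threshold. The call within IgG was kept in 5 of 10 alternative settings and in 3 of the 8 fits without a library, and that within anti-IL-6R in 1 of 10 and 3 of 8, while the log2 fold changes stayed between 0.16 and 0.29. The fits that lost the call within IgG were those without scramble + IgG replicate 2, either scramble + anti-IL-6R library or either shMCT-1 + IgG library (adjusted p = 0.0665 to 0.156 in edgeR). Within anti-IL-6R they were those without either scramble + anti-IL-6R library, either shMCT-1 + IgG library or shMCT-1 + anti-IL-6R replicate 2 (adjusted p = 0.0758 to 0.236 in edgeR).

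Epgn (ENSMUSG00000035020), at 91027464-91035215 on the plus strand of chromosome 5, was near the limit of detection. It was at 0.182 and 0.0830 CPM in scramble + IgG, at 0.0960 and 0.212 CPM in scramble + anti-IL-6R, at 0.229 and 0.128 CPM in shMCT-1 + IgG and at 0.101 and 0.0455 CPM in shMCT-1 + anti-IL-6R. Summed over 4 libraries, it had 17 counts in scramble, or 0.147 CPM (95% exact Poisson interval 0.0854 to 0.235, counting error only), and 11 counts in shMCT-1, or 0.126 CPM (0.0630 to 0.226). These intervals overlap almost entirely, and a difference was not detectable at this depth. Ereg (ENSMUSG00000029377), at 91074622-91093646 on the plus strand of the same chromosome, had 1 and 0 counts in scramble + IgG, 2 and 1 counts in scramble + anti-IL-6R and 0 counts in all 4 shMCT-1 libraries. At 0 of 87101869 counts the exact Poisson interval allows up to 0.0424 CPM in shMCT-1, and the 4 counts in scramble amount to 0.0345 CPM (0.00940 to 0.0883). No library held more than the floor of 3 counts, so no fold is given for Ereg.

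Set side by side per length, the ligands formed a smaller total in shMCT-1 cells with a different mix. The summed level of the 6 ligands was 153 ± 6.17 CPM per kb (SD, n = 4) in scramble and 96.5 ± 3.61 CPM per kb (SD, n = 4) in shMCT-1 libraries, both treatments pooled. Areg made up 80.1% ± 0.617 of that sum in scramble and 71.8% ± 0.917 in shMCT-1 libraries (SD, n = 4 each). The share of Tgfa was 6.83% ± 0.514 and 12.3% ± 0.412, and that of Hbegf 11.9% ± 0.183 and 14.9% ± 0.938 (SD, n = 4 each). The ratio of Areg to Tgfa was thus 10.97 to 12.96 in scramble and 5.51 to 6.11 in shMCT-1 libraries, without overlap. These shares follow from the single genes above and carry no test of their own.

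Among the receptors, Erbb2 (ENSMUSG00000062312), at 98412470-98437716 on the plus strand of chromosome 11, was the most abundant. It was at 58.7 and 54.8 CPM in scramble + IgG, at 55.7 and 58.6 CPM in scramble + anti-IL-6R, at 63.2 and 61.2 CPM in shMCT-1 + IgG and at 71.0 and 68.4 CPM in shMCT-1 + anti-IL-6R. The shMCT-1 libraries were all higher, those with anti-IL-6R most. The call came within anti-IL-6R, at a log2 fold change of 0.34 (SE 0.08, adjusted p = 0.00613 in edgeR), and the value within IgG was 0.17 (SE 0.08, adjusted p = 0.0980 in edgeR), which did not pass. The interaction was 0.17 (SE 0.12, unadjusted p = 0.182 in edgeR), so that the 2 treatments were not shown to differ. Without scramble + anti-IL-6R replicate 1 the value within anti-IL-6R was 0.31 and the call was lost (adjusted p = 0.0751 in edgeR).

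Erbb3 (ENSMUSG00000018166), at 128567523-128589652 on the minus strand of chromosome 10, encodes the receptor of neuregulins and rose most among the 7 genes tested. It was at 7.19 and 8.26 CPM in scramble + IgG, at 7.87 and 7.74 CPM in scramble + anti-IL-6R, at 13.04 and 13.4 CPM in shMCT-1 + IgG and at 11.5 and 14.1 CPM in shMCT-1 + anti-IL-6R. Each shMCT-1 library was well above each scramble library. It rose by 0.82 on the log2 scale within IgG (SE 0.14, adjusted p = 0.000967 in edgeR) and by 0.77 within anti-IL-6R (SE 0.14, adjusted p = 0.00132 in edgeR), or 1.76-fold and 1.70-fold. These calls held in all 10 alternative settings and in all 8 fits without a library, at log2 fold changes of 0.63 to 0.94.

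Egfr (ENSMUSG00000020122), at 16752203-16918158 on the plus strand of chromosome 11, encodes the receptor that gives the family its name. It was at 0.327 and 0.415 CPM in scramble + IgG, at 0.288 and 0.423 CPM in scramble + anti-IL-6R, at 0.366 and 0.682 CPM in shMCT-1 + IgG and at 1.06 and 0.774 CPM in shMCT-1 + anti-IL-6R, from 8 to 21 counts a library. The only library above 1 CPM was shMCT-1 + anti-IL-6R replicate 1, and the lowest shMCT-1 library lay within the range of the scramble libraries. Summed over 4 libraries, Egfr had 42 counts in scramble, or 0.362 CPM (95% exact Poisson interval 0.261 to 0.490), and 62 in shMCT-1, or 0.712 CPM (0.546 to 0.913), counting error only. The exact permutation test over libraries, 4 against 4, gave p = 0.0857, two-sided. Under the filterByExpr filter of edgeR, which keeps Egfr, the log2 fold change was 0.57 within IgG (SE 0.53, adjusted p = 0.394) and 1.42 within anti-IL-6R (SE 0.49, adjusted p = 0.0324). Without any filter the values were 0.56 (adjusted p = 0.618 in edgeR) and 1.42 (SE 0.54, adjusted p = 0.0334 in edgeR). Egfr passed filterByExpr mainly through shMCT-1 libraries, where it was higher, so that its call in that fit is no support for a change. Without any filter Egfr was also called within anti-IL-6R, on at most 21 counts a library. Its interaction was not called (0.86, SE 0.72, adjusted p = 1.00 in edgeR with filterByExpr).

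The mix of receptors was dominated by Erbb2 in both backgrounds. Per length, Erbb2 made up 89.2% ± 0.856 of the summed level of the 3 receptors in scramble and 85.01% ± 1.504 in shMCT-1 libraries (SD, n = 4 each). The share of Erbb3 was 10.5% ± 0.837 and 14.6% ± 1.60, and that of Egfr 0.262% ± 0.0476 and 0.423% ± 0.153 (SD, n = 4 each). The level of Erbb2 per kb exceeded that of Egfr 287-fold to 420-fold in scramble and 146-fold to 375-fold in shMCT-1 libraries, ranges that overlap. The summed receptor level was 12.3 ± 0.331 CPM per kb in scramble and 14.9 ± 0.818 CPM per kb in shMCT-1 libraries (SD, n = 4 each), moving opposite to the ligand sum.

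Errfi1 (ENSMUSG00000028967), at 150853919-150868892 on the plus strand of chromosome 4, encodes the feedback inhibitor of EGFR and is itself switched on by ERK signaling. It was at 246.1 and 254.1 CPM in scramble + IgG, at 241.6 and 242.9 CPM in scramble + anti-IL-6R, at 215.9 and 220.2 CPM in shMCT-1 + IgG and at 223.1 and 246.3 CPM in shMCT-1 + anti-IL-6R. Only shMCT-1 + anti-IL-6R replicate 2 reached the scramble range. Neither value passed the test, with log2 fold changes of -0.16 within IgG (SE 0.08, adjusted p = 0.133 in edgeR) and 0.01 within anti-IL-6R (SE 0.08, adjusted p = 0.921 in edgeR), and the exact permutation test of 4 against 4 libraries gave p = 0.200. The 95% intervals of these log2 values, -0.34 to 0.03 and -0.17 to 0.19, bound the change that these libraries allow.

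**Figure D3:**
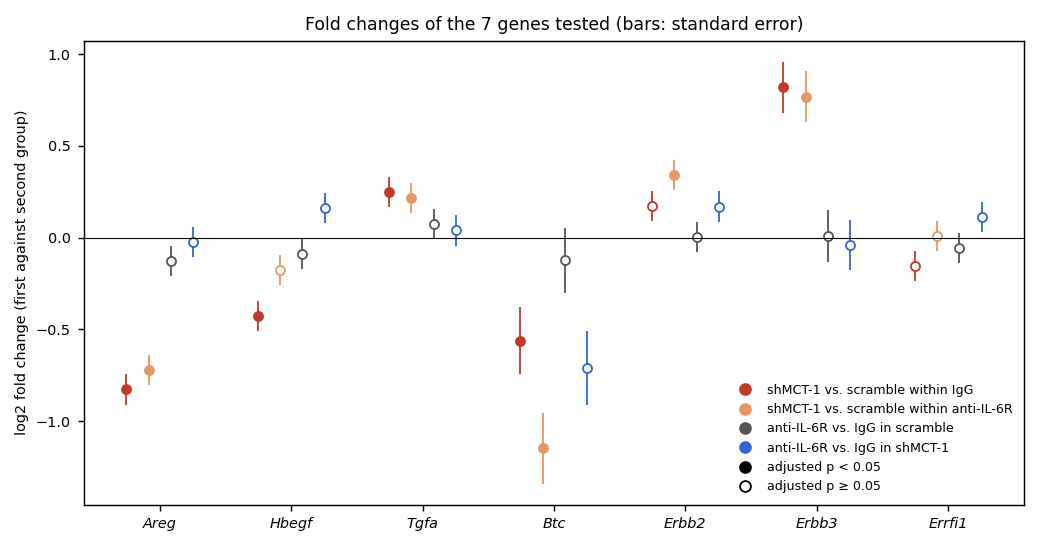
Log2 fold change of the 7 tested genes (vertical axis) in the 4 comparisons given by color, with bars for the standard error and filled points for an adjusted p under 0.05 in edgeR. Filled points occur in the comparisons of shMCT-1 with scramble, and all points for anti-IL-6R against IgG are open.

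Upon anti-IL-6R, 0 of the 7 tested genes were called in scramble cells and 0 in shMCT-1 cells. By DESeq2 and by edgeR's exact test the count was likewise 0 of 7 in each background. Over all 12704 genes DESeq2 called 0 in scramble and 11 in shMCT-1 cells, and the exact test 10 and 14. Without the filter on low counts, edgeR's quasi-likelihood test called 64 and 133 of 27528 genes. With the filter it called 0% of all genes tested in each of these comparisons. An unadjusted p under 0.05 was found for 1.31% (166 genes, scramble) and 3.98% (505 genes, shMCT-1). These shares depended on single libraries. With 1 library left out, the number of genes with such a p ran from 59 to 1901 in scramble, highest without scramble + IgG replicate 1, when 14 of 12575 genes were called. In shMCT-1 it ran from 177 to 1333, highest without shMCT-1 + anti-IL-6R replicate 2, when 1 of 12658 genes was called. None of the 7 family genes was called in any of these 8 fits. The log2 fold changes of the 7 genes ran from -0.71 to 0.17, with standard errors of 0.08 to 0.20. The lowest was that of Btc in shMCT-1 cells, with an unadjusted p of 0.00558 and an adjusted p of 1.00 in edgeR, the only unadjusted p under 0.05 among the 14 values of these genes. Areg was at -0.13 in scramble (95% interval -0.31 to 0.05) and at -0.02 in shMCT-1 cells (-0.21 to 0.16). For Erbb3 the interval was -0.31 to 0.32 in scramble and -0.35 to 0.26 in shMCT-1 cells. The widest intervals were those of Btc, -0.51 to 0.27 in scramble and -1.16 to -0.26 in shMCT-1 cells. The interaction of shMCT-1 and anti-IL-6R was called by edgeR's quasi-likelihood test for 0 of the 7 genes and for 0% of all genes tested, of which 2.48% (315 genes) had an unadjusted p under 0.05. That number ran from 130 to 1411 with 1 library left out, again highest without scramble + IgG replicate 1, when 8 genes were called, and DESeq2 called 6 genes with all libraries; 0 of the 7 family genes were among those called. Since permuting 2 libraries against 2 can give no exact p under 0.333, no such test is given here.

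Areg, Ereg, Epgn and Btc lie together on chromosome 5, within 375.5 kb from 91027464 to 91402994, next to a cluster of CXC chemokines. Within 1000000 bases on either side, 21 further genes were tested, of which 6 were lower and 5 higher in shMCT-1 in both treatments. These counts are near the shares of all genes tested (22.7% lower, 23.6% higher). Whether a narrower stretch around the ligands stands apart was not tested. Single neighbours are given as a description. Cxcl5 and Cxcl1, chemokines that attract neutrophils, were lower, with log2 fold changes of -1.62 and -0.50 within IgG and -1.61 and -0.47 within anti-IL-6R. Parm1, on the other side of Btc, was lower as well, at -1.51 and -2.54. Mthfd2l, which lies between Cxcl1 and Epgn, was not called, at -0.12 and -0.22. Farther away, genes went both ways. Afp (alpha-fetoprotein) was higher at 3.09 and 2.92, as were Naaa at 0.99 and 0.85 and Cxcl10 at 1.34 and 1.03. Cox18 at 0.65 and 0.59 and Odaph at 1.30 and 1.59 were higher too. Ankrd17 at -0.98 and -0.89 and Gm9958 at -2.39 and -2.93, both farther from the ligands than Afp, were lower. Rassf6, between Afp and Cxcl5, was lower at -0.67 and -1.01. The median over the 842 tested genes of chromosome 5 was -0.0028 within IgG and -0.02 within anti-IL-6R. Chromosome 11, which carries Egfr and Erbb2, had medians of 0.15 in both treatments, and chromosome 10, which carries Erbb3, of 0.11 and 0.09. Beside these medians, the log2 fold changes of Erbb2 were 0.17 within IgG and 0.34 within anti-IL-6R, and those of Erbb3 0.82 and 0.77.

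**Figure D4:**
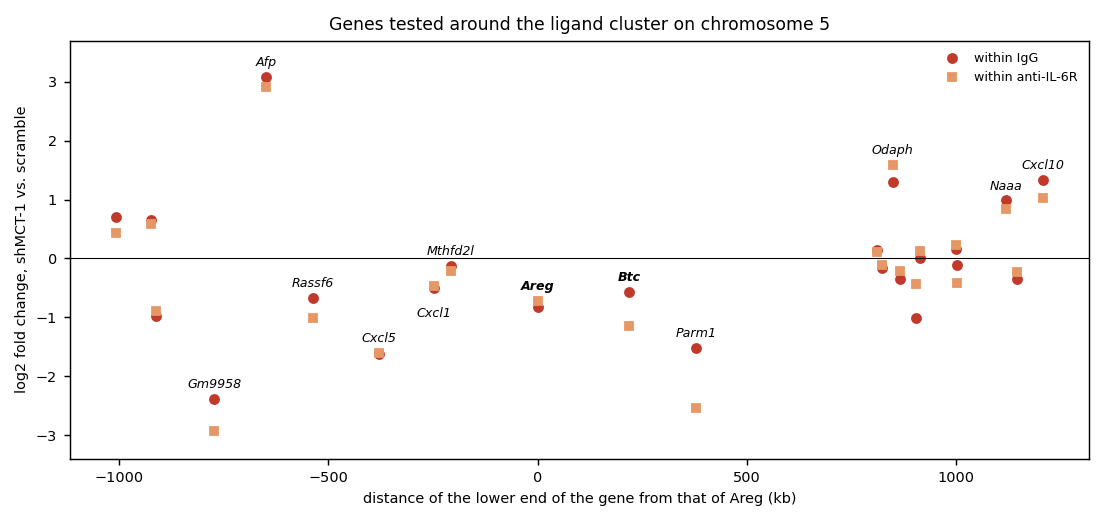
Log2 fold change between shMCT-1 and scramble (vertical axis) for Areg, Btc and the 21 other genes tested within 1000000 bases of the cluster, by distance in kb of the lower end of the gene from that of Areg; circles are within IgG, squares within anti-IL-6R. Of the genes named in the plot, those from Gm9958 to Parm1 other than Afp lie below 0, and Afp, Odaph, Naaa and Cxcl10 above it.

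The genes whose pattern over the 8 libraries was most like that of Areg were Rabgap1, Ripk1 and Gng12. Likeness was measured as the root mean square difference of log2 CPM, each gene centred on its own mean, which was 0.0452, 0.0458 and 0.0563 over the 8 libraries. Their log2 fold changes were -0.77, -0.78 and -0.83 within IgG and -0.71, -0.72 and -0.73 within anti-IL-6R. The 8 points of such a comparison fall into 2 levels, scramble and shMCT-1, so that any gene lower by the same amount ranks high. No such search was made for Egfr, which was not among the genes tested.

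The wider pathway was followed in 69 further genes in 5 lists, of which 66 were tested. Within IgG 20 were higher in shMCT-1 cells, 22 lower and 24 were not called, and within anti-IL-6R 19 were higher, 25 lower and 22 not called. In both treatments, 17 were higher and 20 lower, beside 23.6% and 22.7% of all genes tested, a background that also holds for the counts of each list below. The 17 include Egr1, which entered the test only through shMCT-1 libraries. The median log2 fold changes were 0.0030 and -0.02, beside 0.01 for all genes. Upon anti-IL-6R, 0 of the 66 were called in either background. Genes of the lists were thus called in both directions, and those that differed most are given by their place in the pathway.

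Among the other ligands and receptors, Nrg1, which encodes the ERBB3 ligand neuregulin-1, was at 60.0 to 67.9 CPM in scramble and 22.1 to 23.7 CPM in shMCT-1 libraries. It fell by 1.41 within IgG (SE 0.10, adjusted p = 6.09e-06 in edgeR) and by 1.43 within anti-IL-6R (SE 0.10, adjusted p = 5.08e-06 in edgeR) on the log2 scale. This neuregulin was thus lower where Erbb3 itself was higher. Nrg2, which encodes another neuregulin and was at 2.80 to 3.98 CPM, went the other way. It was a DEG within IgG at 0.50 (adjusted p = 0.0490 in edgeR) and stood at 0.39 within anti-IL-6R (adjusted p = 0.107 in edgeR). Nrg4, at 0.640 to 1.44 CPM, was a DEG within anti-IL-6R at -0.87 (adjusted p = 0.0475 in edgeR) and stood at 0.47 within IgG (adjusted p = 0.232). Its interaction of -1.34 was not called (unadjusted p = 0.0155, adjusted p = 1.00 in edgeR). Egf, at 0.319 to 1.02 CPM, was not tested, and Nrg3 and Erbb4 had 0 counts in every library. ERBB4 is the other receptor that HB-EGF, betacellulin and epiregulin bind. The floor of 3 counts stood at 0.151 CPM in the smallest library. This is a bound for 1 library and not the exact Poisson interval over pooled libraries given for Ereg.

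Of the 10 genes of ligand release, all tested, 4 were higher and 2 lower in shMCT-1 in both treatments. Adam17, the main sheddase of amphiregulin, TGF-alpha and HB-EGF, was at 113.5 to 126.7 CPM in scramble and 70.0 to 79.0 CPM in shMCT-1 libraries, and fell by 0.59 within IgG and by 0.63 within anti-IL-6R on the log2 scale (SE 0.09 each, adjusted p = 0.000624 and 0.000412 in edgeR). Adam9, another metalloprotease, was also lower, at 106.5 to 112.9 CPM in scramble and 66.9 to 86.0 CPM in shMCT-1 libraries. Its log2 fold changes were -0.36 and -0.44 (adjusted p = 0.0207 and 0.00798 in edgeR). The metalloproteases of this list that changed most, Adam19 and Adam15, rose. Adam19 was at 2.45 to 2.69 CPM in scramble and 20.8 to 26.3 CPM in shMCT-1 libraries, with log2 fold changes of 3.05 and 3.35, the largest of the 66 genes. Adam15 was at 45.4 to 53.9 CPM and 106.1 to 123.2 CPM, at 1.28 and 1.179. Cnih4, a cargo receptor of the early secretory route, was at 37.7 to 43.4 CPM and 68.8 to 80.7 CPM, at 0.94 and 0.89.

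In the list of adaptors and kinases, with 21 genes tested, 3 were higher and 6 lower in both treatments. Sos1 and Sos2, the exchange factors that load RAS, were lower, with log2 fold changes of -0.77 and -0.71 within IgG and -0.67 and -0.58 within anti-IL-6R. Braf, a RAF kinase, was at 29.2 to 33.5 CPM in scramble and 15.0 to 23.1 CPM in shMCT-1 libraries, at -0.50 and -0.68. Hras was higher, from 56.9 to 68.4 CPM in scramble to 88.5 to 100.7 CPM in shMCT-1 libraries, at 0.61 and 0.58. Of these 4, the exchange factors and the RAF kinase were thus lower and the RAS gene higher.

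Of the 18 genes of receptor turnover and feedback, all tested, 6 were higher and 6 lower in both treatments. Spry1, a Sprouty inhibitor of the RAS and ERK route, was at 3.69 to 4.08 CPM in scramble and 10.96 to 14.2 CPM in shMCT-1 libraries, with log2 fold changes of 1.88 and 1.69. Spry4, of the same family, was at 0.84 and 0.70, and Lrig3, of a family of membrane proteins that act on these receptors, at 1.23 and 1.28. Usp8, a deubiquitinase that acts on receptors in endosomes, was lower, from 110.0 to 128.7 CPM in scramble to 47.8 to 66.6 CPM in shMCT-1 libraries, at -1.04 and -0.94. The 2 Sprouty genes and Lrig3 thus rose and Usp8 fell.

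Of the 14 early response genes, all tested, 4 were higher, Egr1 among them, and 5 lower in both treatments. Egr2 was at 7.17 to 7.99 CPM in scramble and 0.857 to 1.96 CPM in shMCT-1 libraries, with log2 fold changes of -2.23 and -2.27. Egr3 was at 8.46 to 9.01 CPM and 0.958 to 2.19 CPM, at -2.09 and -2.40. Egr1 was scarce throughout, at 0.182 to 0.333 CPM in scramble and 0.605 to 1.184 CPM in shMCT-1 libraries. It entered the test only through 2 shMCT-1 libraries above 1 CPM, so that its difference is given as levels only and its place among the 4 higher genes is no support for a change. Jun, which encodes a subunit of AP-1, was at 290.5 to 351.6 CPM in scramble and 154.6 to 204.3 CPM in shMCT-1 libraries, at -0.77 and -0.73. The higher genes besides Egr1 were Junb, Ier3 and Etv4, with log2 fold changes of 0.49, 0.47 and 0.42 within IgG. Junb was at 354.9 to 387.0 CPM in scramble and 488.8 to 612.5 CPM in shMCT-1 libraries. Ier3 was at 242.3 to 268.4 CPM and 339.4 to 401.9 CPM, and Etv4 at 80.4 to 90.7 CPM and 107.5 to 121.4 CPM.

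**Figure D5:**
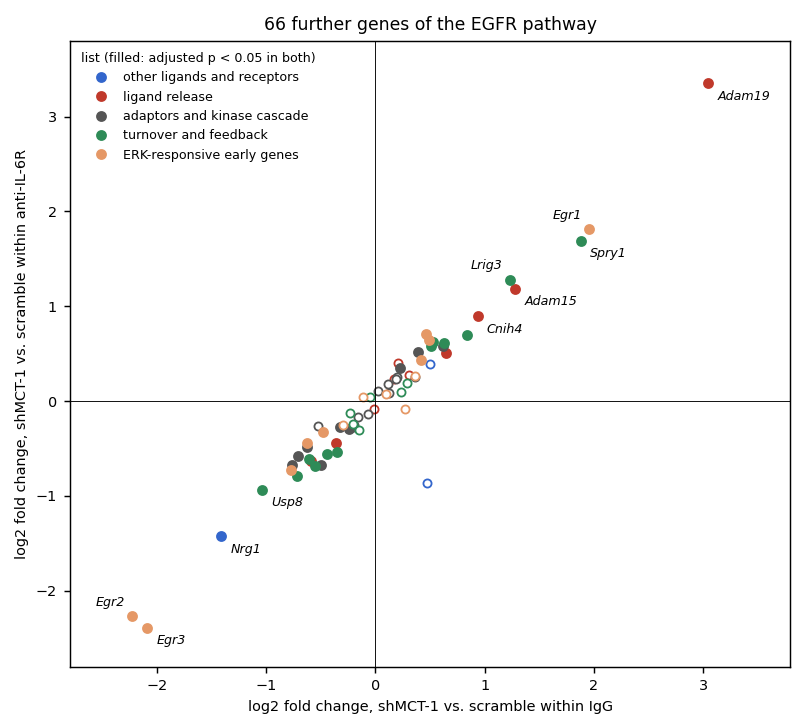
Log2 fold change between shMCT-1 and scramble within IgG (horizontal axis) and within anti-IL-6R (vertical axis) for the 66 further pathway genes tested, colored by list and filled where the adjusted p was under 0.05 in both. Adam19 and Spry1 lie at the upper right and Egr2, Egr3 and Nrg1 at the lower left, with genes of 4 of the 5 lists filled on both sides of 0. The filled point of Egr1, also at the upper right, is no support for a change. That gene entered the test only through shMCT-1 libraries.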

How the data were processed

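Poly(A)-selected RNA of 8 libraries was sequenced from paired ends. After adapter removal with cutadapt 1.18 the authors mapped the reads by STAR 2.7.0d to mm10, estimated counts per gene by RSEM with GENCODE M19, and deposited these expected counts without normalization, 54532 genes a library. The libraries carry unique molecular identifiers; the RSEM version and whether the identifiers entered the counts were not given in the sources used here. Of the values above 0, 29.6% were not whole; all were rounded before testing. Symbols, coordinates and exon lengths came from GENCODE M21 (GRCm38), which held 54409 of the identifiers without version.

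CPM were computed from library totals. Genes above 1 CPM in at least 2 libraries (12704) were scaled by TMM and fitted in edgeR 4.0.16 (R 4.3.3) as 4 group means over all 8 libraries, with quasi-likelihood F-tests, Benjamini-Hochberg adjustment over all genes tested and a threshold of 0.05. Standard errors came from the log2 fold change and its F statistic. The test was checked on simulated counts. Intervals of log2 fold changes come from the edgeR fit and include the spread between libraries; Poisson intervals and floors (3 counts) cover counting error only, which libraries of a group exceeded (chi-square per degree of freedom 4.39 to 28.1).

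The family genes and all lists were chosen with earlier results of these data known. Every family gene is named, with Mcts1 and the ligands or receptors left untested. From each list up to 4 genes called in both comparisons are named, those with the largest mean absolute log2 fold change. Nrg2, Nrg4, Adam9, Junb, Ier3, Etv4 and the neighbours on chromosome 5 were named after their values were seen. Alternatives were RLE size factors, library totals, no filter, a filter in at least 4 libraries, filterByExpr, DESeq2 1.42.0, edgeR's exact test, a fit of 4 libraries, a replicate block, thinning to the smallest library, and leaving out each library. Protein sequences were not used here.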

Additional observations from a re-analysis of the deposited data

How the results depend on the processing

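The number of family genes called was 5 of 7 in each comparison of shMCT-1 with scramble; with each library left out in turn it was 3 to 5 within IgG (3 without shMCT-1 + IgG replicate 1 or 2) and 3 to 5 within anti-IL-6R (3 without scramble + anti-IL-6R replicate 1). Areg and Erbb3 in both treatments, Hbegf within IgG and Btc within anti-IL-6R remained called in every alternative and every fit without a library. Directions turned only for values that were not called. Errfi1 within anti-IL-6R was -0.0455 with library totals, -0.00045 with the filter in at least 4 libraries and -0.0437 to 0.0885 with a library left out. For anti-IL-6R vs. IgG in scramble, Erbb2 was -0.0107 in the exact test, -0.0106 in the fit of 4 libraries, -0.0135 after thinning and -0.0313 to 0.0367 with a library left out; Erbb3 was -0.0051 in the exact test, -0.0058 in the fit of 4 libraries and -0.11 to 0.13 with a library left out; Mcts1 was -0.21 to 0.13. In shMCT-1 the ranges with a library left out were -0.0918 to 0.0493 for Areg, -0.0101 to 0.11 for Tgfa, -0.18 to 0.10 for Erbb3 and -0.34 to 0.12 for Mcts1. For the interaction they were -0.0731 to 0.0437 for Tgfa, -0.18 to 0.10 for Erbb3 and -0.27 to 0.19 for Mcts1, which was 0.0588 after thinning. The exact test and the fit of 4 libraries give no interaction. The cause of these turns was not tested.

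Replicate numbers did not pair the libraries: deviations from the group means correlated at -0.08 to 0.11 between groups. With the replicate number as a block, 5 of the 7 family genes were called within IgG and 4 within anti-IL-6R. Of all 12704 genes tested, 7035 and 7017 were called. Tgfa stood at 0.22 within anti-IL-6R (adjusted p = 0.0543 in edgeR).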
